A study of Mus musculus with 6 samples.

Results

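The mRNA levels of 9 genes that carry the interferon signal from the cell surface to the nucleus were examined in the mouse intestine with and without Myc, a transcription factor that drives cell growth. The genes were taken by symbol from the 47643 genes of the deposited count table and comprised 4 receptor chains (Ifnar1, Ifnar2, Ifnlr1 and Il10rb), the kinase Jak1, the transcription factor subunits Stat2 and Irf9, and the interferon regulatory factors Irf7 and Irf1. All 9 had enough counts to be tested among 12720 genes. The RNA came from male C57BL/6 mice aged 7 to 8 weeks, all of which had been treated with tamoxifen and kept for 2 weeks on a 60% HFD (high-fat diet). The intestinal segment is not given. The 3 control libraries were from mice with floxed Myc (Mycfl/fl), and the 3 Myc-deleted libraries were from mice labelled MycΔIE, ERT2, in which tamoxifen induces the deletion in the intestinal epithelium. The labels do not name the promoter that drives the recombinase and do not say whether the controls carry one, so loss of Myc and recombinase activity cannot be told apart. They also do not state that each library came from a separate mouse, and the p-values measure the spread between these libraries.

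Interferons are secreted when a cell detects viral or misplaced nucleic acid. Type I interferons bind a receptor made of IFNAR1 and IFNAR2, and type III (lambda) interferons bind one made of IFNLR1 and IL10RB, which in the gut is used mostly by epithelial cells. Both receptors signal through JAK1 and a partner kinase to a complex called ISGF3, in which STAT2 and IRF9 are subunits, and this complex switches on antiviral genes through a DNA element known as the ISRE. Irf7 is itself an interferon-induced gene whose product amplifies interferon production, whereas Irf1 is best known as a target of gamma interferon, which acts through a different element, GAS.

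Library totals were 9956898 to 11328651 counts. Myc itself had 59, 70 and 59 counts in the controls and 36, 47 and 63 in the Myc-deleted libraries (log2 fold change -0.41 ± 0.22 SE, edgeR adjusted p = 0.318). In Myc-deleted library 3, which had the highest Irf7, Myc stood at 5.81 CPM (counts scaled by library size and TMM factor), close below the lowest control (5.86 CPM), and it does not check the label of that library.

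Of the 9 genes, 4 rose in the Myc-deleted mice and 0 fell, where 4.22% of all tested genes rose and 3.73% fell (edgeR quasi-likelihood test, Benjamini-Hochberg adjusted p under 0.05). DESeq2 and limma voom also gave 4 higher and 0 lower, and 0 were lower at an unadjusted p under 0.05. The risers were Irf7 (2.38-fold), Stat2 (1.93-fold), Irf9 (1.501-fold) and the lambda receptor chain Ifnlr1 (1.36-fold). In 4 of the 9 genes, the same 4, every Myc-deleted library lay above every control, against 14.0% of all tested genes. The test and this separation rest on the same values, so the separation is no added evidence. The type I receptor chains Ifnar1 and Ifnar2, the shared chain Il10rb, the kinase Jak1 and Irf1 did not pass, and their groups overlapped. The median log2 fold change of the 9 genes was 0.28, against -0.00212 for all tested genes.

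The sequences around the starts of 3 of these genes are shown. Stat2 was the riser with an ISRE match, Irf7 rose most, and Irf1, with a GAS match, did not pass. The motifs were chosen after the values were seen, and a match describes letters, not a bound site. Each window runs 5′ to 3′ from 250 bases before to 50 bases after an annotated start (RefSeq, GRCm38.p6). Capitals mark matches to the ISRE core GAAANNGAAA or to the GAS letters TTCNNNGAA, searched on both strands.
Stat2 (chr10:128270248-128270547, plus strand): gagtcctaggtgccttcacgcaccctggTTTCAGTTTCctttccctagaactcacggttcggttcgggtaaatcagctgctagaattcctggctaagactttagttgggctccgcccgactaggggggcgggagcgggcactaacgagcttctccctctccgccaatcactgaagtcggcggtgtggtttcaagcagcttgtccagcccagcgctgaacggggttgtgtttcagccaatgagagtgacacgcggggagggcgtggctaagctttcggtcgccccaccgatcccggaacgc
Irf7 (chr7:141266375-141266674, minus strand): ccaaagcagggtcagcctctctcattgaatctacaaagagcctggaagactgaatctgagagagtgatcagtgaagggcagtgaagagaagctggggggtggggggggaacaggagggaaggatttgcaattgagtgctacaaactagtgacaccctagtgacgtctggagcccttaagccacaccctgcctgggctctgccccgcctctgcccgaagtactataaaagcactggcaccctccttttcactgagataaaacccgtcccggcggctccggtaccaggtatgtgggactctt
Irf1 (chr11:53769764-53770063, plus strand): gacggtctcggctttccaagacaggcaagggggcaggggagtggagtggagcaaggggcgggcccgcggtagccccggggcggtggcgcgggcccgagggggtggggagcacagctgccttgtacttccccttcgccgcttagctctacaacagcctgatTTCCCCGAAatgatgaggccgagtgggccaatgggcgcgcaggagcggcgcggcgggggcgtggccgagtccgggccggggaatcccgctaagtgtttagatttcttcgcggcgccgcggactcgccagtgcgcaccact

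The Stat2 window held 1 ISRE core, read on the minus strand as TTTCAGTTTC in the printed direction, beginning 222 bases before the start. An ISRE core occurred in 3.44% of all 32851 start windows. The Irf1 window held 1 GAS match, TTCCCCGAA, 90 bases before the start, and GAS letters occurred in 8.30% of all windows. The windows of Ifnar1 (TTCACGGAA, 5 bases before the start) and Ifnar2 (TTCCTGGAA, 214 bases before it) also held a GAS match. Neither set of letters was found in the windows of Irf7, Ifnlr1, Jak1 or Irf9, which had 2 windows. The second Irf1 window held neither. No window held the E-box CACGTG, the element that Myc binds, present in 7.15% of all windows. The search covered no other sequence of these genes. Both Irf9 windows lay inside the annotated gene, which starts at 55603571, the first window beginning at 55603735. The sequence before that gene start was not searched.

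**Figure D1:**
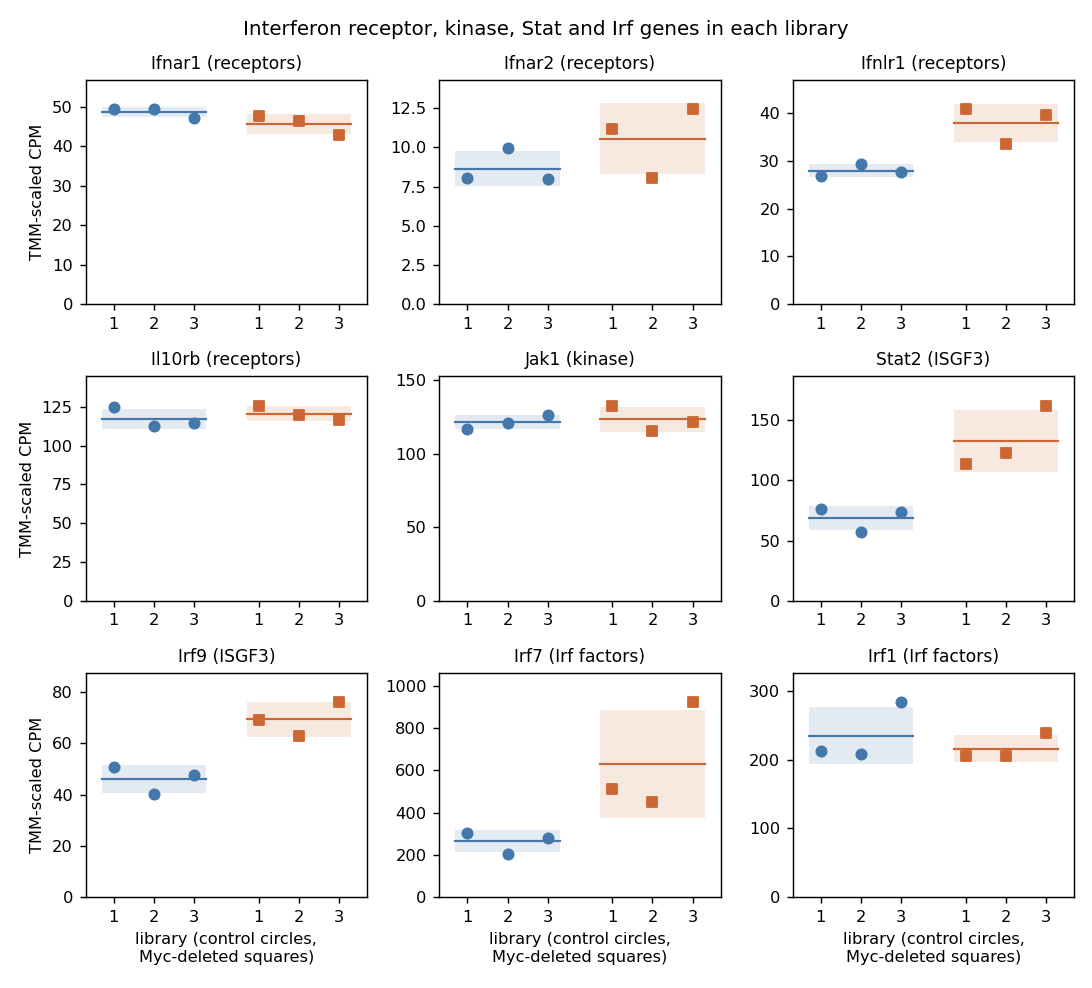
Normalised level (CPM, counts scaled by library size and TMM factor) of each gene in control libraries 1 to 3 (circles) and Myc-deleted libraries 1 to 3 (squares). Lines are group means and shaded bands 1 SD (n = 3 each). All Myc-deleted values of Ifnlr1, Stat2, Irf9 and Irf7 lie above the controls, and Myc-deleted library 3 is the highest of all for Stat2, Irf9 and Irf7.

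Among the receptors, Ifnlr1 (ENSMUSG00000062157.6, chromosome 4, 135686287 to 135708181, GRCm38) encodes the chain that is specific to lambda interferon. Its normalised level was 26.8, 29.4 and 27.7 CPM in control libraries 1 to 3 and 40.9, 33.5 and 39.6 CPM in Myc-deleted libraries 1 to 3. The lowest Myc-deleted library stood above the highest control. Ifnlr1 rose by a log2 fold change of 0.44 ± 0.10 (SE; 95% interval 0.22 to 0.66; edgeR adjusted p = 0.0243). The call was lost when any library other than Myc-deleted library 2 was left out (adjusted p = 0.0597 to 0.0867), while the log2 fold change was 0.39 to 0.52 over all 6 such runs.

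The other chain of the lambda receptor, Il10rb (ENSMUSG00000022969.13, chromosome 16, 91406164 to 91425834), also serves the receptors for interleukins 10 and 22. It stood at 125, 113 and 114 CPM in the controls and 126, 119.6 and 116 CPM in the Myc-deleted mice. The values of the groups were interleaved. Its log2 fold change was 0.04 ± 0.08 (95% interval -0.13 to 0.21; adjusted p = 0.810).

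Ifnar1 (ENSMUSG00000022967.12, chromosome 16, 91485238 to 91507441), the chain of the type I receptor that recruits the second kinase, was at 49.4, 49.4 and 47.2 CPM in the controls and 47.6, 46.2 and 42.7 CPM in the Myc-deleted mice. The groups did not differ past the threshold (log2 fold change -0.10 ± 0.08, 95% interval -0.27 to 0.08, adjusted p = 0.530). Only Myc-deleted library 1 reached into the control range. Ifnar2 (ENSMUSG00000022971.18, chromosome 16, 91372783 to 91405589), the chain with the higher affinity for the ligand, was the least abundant of the 9 genes per exon length, at 8.05, 9.94 and 7.97 CPM in the controls and 11.2, 8.08 and 12.5 CPM in the Myc-deleted mice. Myc-deleted libraries 1 and 3 lay above the controls and library 2 within them. The difference did not pass (0.28 ± 0.18, 95% interval -0.13 to 0.69, adjusted p = 0.410). A predicted gene on the same strand, Gm21970, overlaps Ifnar2 and Il10rb and had at most 2 counts in any library.

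Jak1 (ENSMUSG00000028530.14, chromosome 4, 101152367 to 101265282), the kinase bound to one chain of each interferon receptor, was at 117, 121 and 126 CPM in the controls and 133, 115 and 122 CPM in the Myc-deleted mice. The lowest and the highest value were both in the Myc-deleted group, and the log2 fold change was 0.02 ± 0.08 (95% interval -0.16 to 0.20; adjusted p = 0.910).

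Both ISGF3 subunits rose. Stat2 (ENSMUSG00000040033.15, chromosome 10, 128270559 to 128292849), which carries the activation domain of the complex, had 764, 661 and 718 counts in control libraries 1 to 3 and 1243, 1321 and 1757 counts in Myc-deleted libraries 1 to 3. On the normalised scale these were 75.9, 57.1 and 73.3 CPM against 114, 123 and 162 CPM. Control library 2 was the lowest and Myc-deleted library 3 the highest. The log2 fold change of 0.95 ± 0.15 (95% interval 0.62 to 1.28; adjusted p = 0.00441) was 0.78 to 1.05 with 1 library left out and passed in each run (adjusted p = 0.00433 to 0.0238).

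Irf9 (ENSMUSG00000002325.14, chromosome 14, 55603571 to 55610030), the DNA-binding subunit that recognises the ISRE, was at 50.9, 40.2 and 47.5 CPM in the controls and 69.2, 62.7 and 76.0 CPM in the Myc-deleted mice. Again control library 2 was the lowest and Myc-deleted library 3 the highest. The log2 fold change of 0.59 ± 0.11 (95% interval 0.34 to 0.83; adjusted p = 0.00986) was 0.48 to 0.66 with 1 library left out and passed each time (adjusted p = 0.0165 to 0.0475). The gene upstream on the same strand, Rnf31, a ubiquitin ligase subunit, shares 123 bases of its span with Irf9. Rnf31 rose too (0.45 ± 0.10, edgeR adjusted p = 0.0265). Its call was kept without control library 3 (adjusted p = 0.0487) or Myc-deleted library 1 (adjusted p = 0.0162). Leaving out any other library lost it (adjusted p = 0.0654 to 0.126). The division of reads in the shared stretch between Rnf31 and Irf9 is uncertain.

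Irf7 (ENSMUSG00000025498.14, chromosome 7, 141262706 to 141266481) was the most abundant of the 9 genes per exon length and changed most. It had 3076, 2393 and 2752 counts in the controls and 5608, 4870 and 10001 counts in the Myc-deleted mice, or 306, 207 and 281 CPM against 513, 452 and 923 CPM. Myc-deleted library 3 stood well apart from the other Myc-deleted libraries, which were themselves above every control. The log2 fold change was 1.25 ± 0.25 (95% interval 0.70 to 1.80; adjusted p = 0.0139). Without Myc-deleted library 3 it was 0.86 (adjusted p = 0.0110), and without control library 2 it was 1.09 and no longer passed (adjusted p = 0.0735). Irf7 shares 45 bases with Phrf1 on the other strand, which did not pass (0.07 ± 0.10, adjusted p = 0.722).

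Irf1 (ENSMUSG00000018899.16, chromosome 11, 53770014 to 53778374), whose product drives antigen presentation genes, was in the controls within the spread of Irf7 per exon length. It stood at 213, 209 and 284 CPM in the controls and 205, 205 and 238 CPM in the Myc-deleted mice. The highest library was control library 3, and without it the sign of the difference turned. The log2 fold change was -0.12 ± 0.12 (95% interval -0.40 to 0.15; adjusted p = 0.612), and 0.03 without control library 3. An antisense gene model, Gm17334, shares 907 bases with Irf1 and had at most 19 counts.

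**Figure D2:**
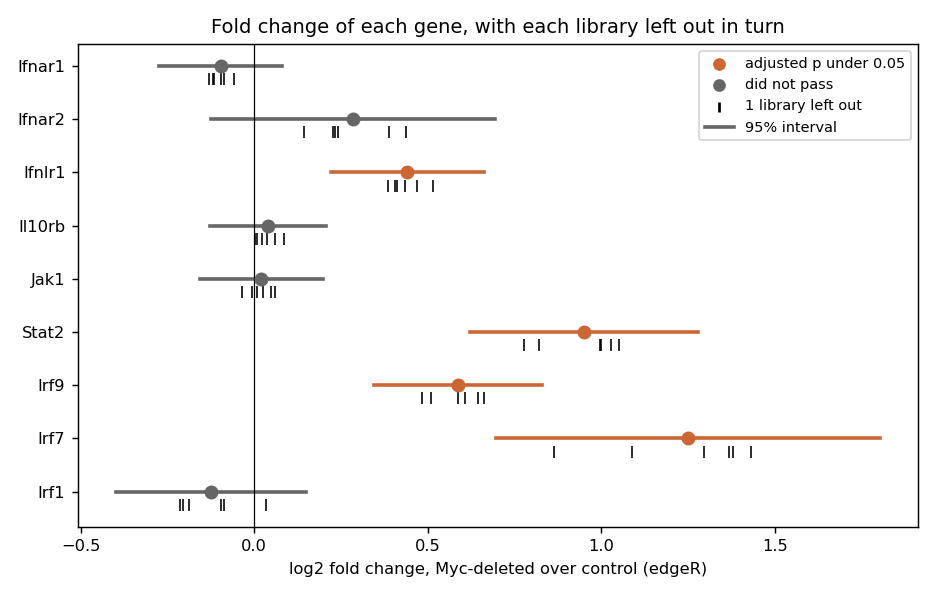
Log2 fold change of each gene, Myc-deleted over control (points), with the 95% interval (bars) and the values with 1 library left out (ticks). Stat2 and Irf9 passed the test in all 6 of these runs. The intervals of Ifnar1, Ifnar2, Il10rb, Jak1 and Irf1 include 0.

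Divided by exon length, the control levels ran from Irf7 (70.1 ± 13.6 CPM per kb; SD, n = 3) and Irf1 (59.1 ± 10.6) through Il10rb (30.8 ± 1.68), Jak1 (16.8 ± 0.645) and Stat2 (11.6 ± 1.72) to Irf9 (8.58 ± 1.01), Ifnar1 (8.19 ± 0.212), Ifnlr1 (6.69 ± 0.312) and Ifnar2 (2.60 ± 0.335). Exon length was the union of all annotated exons of a gene, which for Irf7 (3776 bases) is its whole span. The lengths of the expressed transcripts were not measured, so the order between genes depends on this divisor. By it, Irf7 and Irf1 did not differ beyond their spread in the controls, nor did Irf9 and Ifnar1. In the Myc-deleted mice the level of Irf7 was 167 ± 67.8 CPM per kb against 54.3 ± 4.87 for Irf1. Stat2 (22.4 ± 4.34) then stood above Jak1 (17.1 ± 1.22), and Ifnlr1 (9.09 ± 0.940) above Ifnar1 (7.66 ± 0.423).

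These shifts can be read as ratios within each library, which do not depend on scaling between libraries. The 3 pairs were chosen after their values were seen, so they are a description and no p is given for them. The level per kb of Ifnlr1 was 0.772, 0.846 and 0.833 times that of Ifnar1 in the controls and 1.22, 1.03 and 1.32 times in the Myc-deleted mice. With these exon lengths the lambda chain was below the type I chain in every control and above it in every Myc-deleted library. In CPM, without division by length, Ifnlr1 was below Ifnar1 in every library (39.6 against 42.7 CPM in Myc-deleted library 3). The side of 1 on which a ratio falls thus depends on the lengths, while its change between the groups does not. The ratio of Stat2 to Jak1 was 0.791, 0.576 and 0.708 in the controls and 1.05, 1.298 and 1.62 in the Myc-deleted mice. The ratio of Irf7 to Irf1 was 1.51, 1.04 and 1.04 in the controls and 2.64, 2.33 and 4.08 in the Myc-deleted mice. In none of the 3 ratios did the groups overlap. Each numerator was a riser whose groups were already separate, so this is no added evidence.

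**Figure D3:**
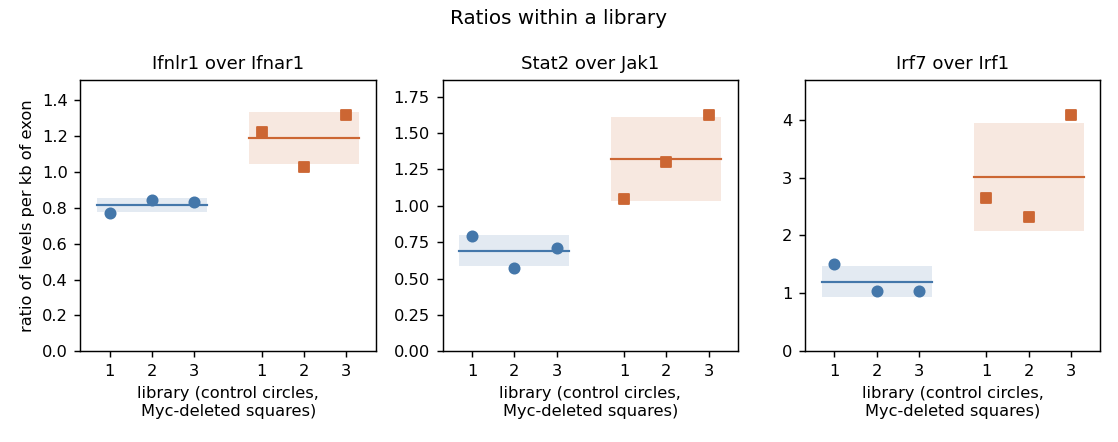
Ratio of levels per kb of exon within each library, for Ifnlr1 over Ifnar1, Stat2 over Jak1 and Irf7 over Irf1. Circles are control and squares Myc-deleted libraries, with lines for means and bands for 1 SD (n = 3 each). Each Myc-deleted value lies above the controls, and Myc-deleted library 3 is the highest in every panel.

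The ligands themselves were hardly measured. Of 20 interferon genes, among them Ifnb1, the alpha-interferon genes and the lambda genes Ifnl2 and Ifnl3, 18 had 0 counts in all 6 libraries, which allows a level of up to 0.259 to 0.306 CPM per library (3 counts, counting error only). Ifna12 had 1 count in Myc-deleted library 1. Ifng, the gamma interferon gene, had 1, 0 and 3 counts in the controls and 2, 2 and 0 in the Myc-deleted mice. None of the 20 was tested. A difference in ligand mRNA was not detectable at this depth.

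The remaining components of the pathway gave few calls. Of 8 other receptor chains and kinases, 0 passed with edgeR, DESeq2 or limma voom (1 higher and 1 lower at an unadjusted p under 0.05), with log2 fold changes of -0.69 to 0.26. Il22ra1, which pairs with Il10rb in the interleukin 22 receptor, was called without Myc-deleted library 3 (0.33 ± 0.08, adjusted p = 0.0497) and not otherwise (0.26 ± 0.09, adjusted p = 0.108). Among them, the gamma-interferon receptor chains Ifngr1 (-0.01 ± 0.08) and Ifngr2 (0.12 ± 0.07) did not pass. Of 6 other Irf genes, 0 passed with any of these tools, and 0 had an unadjusted p under 0.05. The myeloid and B cell factor Irf8 (-0.21 ± 0.15) and Irf2 (0.05 ± 0.08) were among the abundant ones. Of 6 other Stat genes, 1 rose, and 0 did without Myc-deleted library 3, control library 1 or control library 2. Stat6, which relays interleukin 4, did not pass (-0.02 ± 0.07).

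Of 15 negative regulators, Usp18 rose and 0 fell. Usp18 encodes a protease that removes ISG15 from proteins and blocks the type I receptor at IFNAR2. It stood at 13.2, 6.22 and 11.6 CPM in the controls and 39.3, 40.8 and 158 CPM in the Myc-deleted mice. All Myc-deleted libraries were above the controls, library 3 by far the most (2.95 ± 0.55, adjusted p = 0.0103). Leaving out that library gave 1.96 (adjusted p = 0.00252), and its adjusted p was 0.0616 without control library 2. The phosphatase gene Ptpn11 (0.11 ± 0.08) and the feedback inhibitor Socs3 (-0.31 ± 0.23) did not pass. Socs2, an inhibitor of growth hormone signalling named after its values were seen, lay just outside the threshold (-0.39 ± 0.10, adjusted p = 0.0512).

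The genes that these factors act on were listed in 2 classes. Of 25 type I and III interferon targets, 23 rose and 0 fell, with a median log2 fold change of 1.90, and 24 of the 25 were highest in Myc-deleted library 3, which held the highest value of 18.8% of all tested genes. Oas3 (1.83 ± 0.24) and Oas1g (1.51 ± 0.20), sensors of double-stranded RNA, Rtp4 (1.67 ± 0.24) and the helicase gene Ddx60 (1.79 ± 0.29) had the lowest p. The antiviral gene Mx1 (1.21 ± 0.61, adjusted p = 0.288) and Ifi27 (0.24 ± 0.13, adjusted p = 0.316) did not pass. Of 20 targets linked mainly to gamma interferon, 1 rose, with a median of 0.69. At an unadjusted p under 0.05 (edgeR), 8 of these 20 were higher and 0 lower, against 23 and 0 in the first class. Without a filter on low counts 7 of these 20 rose, and 23 of the 25 of the first class. The guanylate-binding protein gene Gbp3 was the riser (1.92 ± 0.51, adjusted p = 0.0491), and its adjusted p was 0.0844 without Myc-deleted library 3, 0.0949, 0.188 and 0.102 without control libraries 1 to 3, 0.0674 with DESeq2 and 0.112 with limma voom. The immunoproteasome genes Psmb10 (0.18 ± 0.12) and Psmb8 (0.30 ± 0.21) and the peptide transporter gene Tap1 (0.71 ± 0.25) did not pass. The difference between the classes was not tested. Without control library 2, 7 genes of the first class and 0 of the second rose, and the medians were 1.67 and 0.40. Without Myc-deleted library 3, 22 and 0 rose, and the medians were 1.33 and 0.31. Over all tested genes, 229 rose without control library 2, against 537 with all libraries.

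The summed level of the first class was 1121, 741 and 973 CPM in control libraries 1 to 3 and 2003, 2017 and 4167 CPM in Myc-deleted libraries 1 to 3. Library 3 stood far above the other two Myc-deleted libraries, as it did for Irf7. The second class summed to 789, 584 and 1023 CPM in the controls and 1016, 877 and 1495 CPM in the Myc-deleted mice, so that its groups overlapped.

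**Figure D4:**
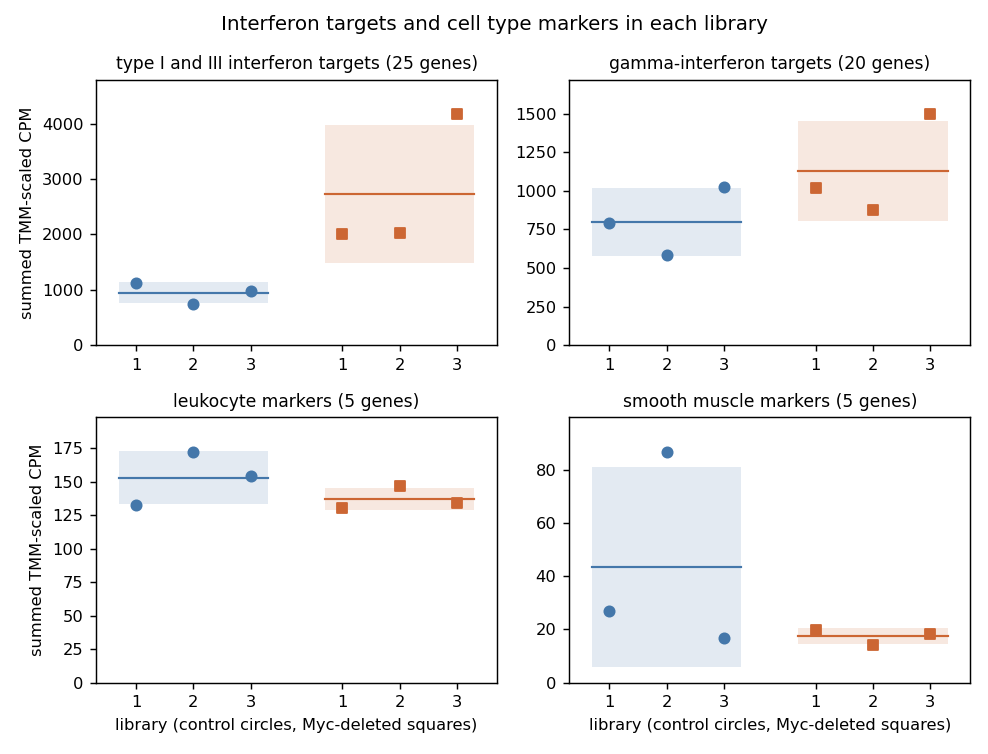
Summed level (TMM-scaled CPM) in each library of the 25 type I and III targets, the 20 gamma-interferon targets, 5 leukocyte markers and 5 smooth muscle markers. Circles are control and squares Myc-deleted libraries, with lines for means and bands for 1 SD (n = 3 each). Myc-deleted library 3 is the highest for both target classes but not for leukocyte markers, and control library 2 is the highest for smooth muscle markers.

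Markers of the cell types in the tissue were set beside these values, since in bulk RNA fewer cells of a type and less RNA per cell cannot be told apart. The 8 epithelial markers summed to 22791 to 25215 CPM in the controls and 22354 to 24383 CPM in the Myc-deleted mice, and 0 of 8 passed with edgeR (1 higher and 1 lower at an unadjusted p under 0.05, and 1 and 1 with DESeq2). Leukocyte markers, Ptprc among them, summed to 133 to 172 and 131 to 147 CPM, T and NK cell markers to 95.1 to 135 and 94.2 to 105 CPM, B and plasma cell markers to 296 to 317 and 302 to 344 CPM, and macrophage and dendritic cell markers to 76.9 to 81.5 and 68.3 to 77.96 CPM. All 5, 10 and 7 genes of the first 3 lists and 8 of the 10 in the last were tested. Of these, 0 passed with edgeR, DESeq2 or limma voom, and 0 were higher and 1, 1, 0 and 1 lower at an unadjusted p under 0.05. Siglech, a marker of plasmacytoid dendritic cells, the cells that make most type I interferon, was too low to be tested, at or below 0.732 CPM in each library. Calls in these lists under other settings were 1 T and NK cell marker lower without control library 2. Of the macrophage and dendritic cell markers, 1 was lower without a filter on low counts and 1 with the replicate block. No immune marker rose in the Myc-deleted mice, and no marker was at 0 in all 6 libraries. Of 5 tested fibroblast markers and 4 tested endothelial markers, 0 passed with edgeR, DESeq2 or limma voom, and 0 had an unadjusted p under 0.05.

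The 5 smooth muscle markers summed to 86.6 CPM in control library 2, against 17.0 and 26.8 CPM in the other controls and 14.2 to 19.95 CPM in the Myc-deleted mice. With edgeR and limma voom 0 of them passed (3 lower at an unadjusted p under 0.05), and 1 was lower with DESeq2, 2 without control library 3 and 3 without a filter on low counts. Control library 2 was also the lowest control for 21 of 25 type I and III targets and all 20 gamma-interferon targets, against 32.1% of all tested genes, as it was for Stat2, Irf9 and Irf7. The part of muscle tissue in these values was not tested. The extraction protocol names liver, while Fabp6, an ileal gene, stood at 9567 to 12490 CPM and the 5 hepatocyte markers summed to 2.88 to 5.79 CPM. Of the 2 of these that were tested, Alb, the albumin gene, fell (-2.15 ± 0.52, adjusted p = 0.0326), with 19, 37 and 27 counts in the controls and 10, 1 and 8 in the Myc-deleted mice. Its adjusted p was 0.0514 to 0.130 with any library other than Myc-deleted library 1 left out.

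By the pattern over the 6 libraries, the 8268 genes with a mean log2 CPM of 3 or more were compared with each riser. Those most like Irf7 were Herc6, an interferon target (Pearson r = 0.999), Ccdc90b (0.998) and Trafd1 (0.997). Areg, which encodes the growth factor amphiregulin (0.999), Adar, the double-stranded RNA editor (0.996), and Tbck (0.995) were most like Stat2. Igsf23 (0.997), Fhl2 (0.996) and F11r (0.996) were most like Irf9, and Vps35l (0.993), Polr2g (0.989) and Atp6v0c (0.989) most like Ifnlr1. These likenesses describe 6 libraries that include the difference between the groups. The highest of 8268 values were picked for each riser, and shared regulation was not tested. Of the genes named, Ccdc90b, Tbck, Fhl2, Vps35l, Polr2g and Atp6v0c did not pass themselves (edgeR adjusted p = 0.0521 to 0.339).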

How the data were processed

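Stranded mRNA libraries of intestine were compared, 3 control and 3 Myc-deleted. The deposited values are expected counts per gene, not scaled between libraries by the authors. The submitters' processing notes name cutadapt, STAR, Picard, RSEM and the build mm10, with no roles. The sources used here give no versions, annotation or strand setting of the counting. Symbols, coordinates and exon lengths came from GENCODE M21 (GRCm38), matched by identifier for 99.1% of 47643 genes.

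Counts were rounded. The test was that of edgeR 4.0.16 in R 4.3.3 (filterByExpr with a minimum count of 10 and total of 15, TMM scaling, quasi-likelihood test of Myc-deleted over control). Benjamini-Hochberg adjustment ran over all 12720 tested genes, with a threshold of 0.05. SE was taken as the size of the log2 fold change divided by the root of F. The prior count for log2 CPM was 2. Recovery of known changes was tested on simulated data. Other settings were DESeq2 1.42.0, voom in limma 3.58.1, RLE or upper-quartile scaling, 2 other filters on low counts, a replicate block, leaving out each library and an adjusted p of 0.1.

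The 9 genes and the lists were chosen with earlier results of these data known. Named were all 9, and of each list up to 4 called genes per direction with the lowest p and up to 3 abundant genes that did not pass. For each riser among the 9, the 3 genes with the most similar pattern were named. Gm21970, Gm17334, Rnf31, Phrf1, Siglech, Fabp6, Alb, Il22ra1 and Socs2 were chosen with their values in view. Some genes are left out of the text. Promoter windows were given for 8 of the 9 genes.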

Additional observations from a re-analysis of the deposited data

How the results depend on the processing

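The number of the 9 genes that rose was 4 under each setting that kept all libraries and 2 to 4 with 1 library left out. It was 2 without control library 2, when Irf7 and Ifnlr1 lost their call. Their log2 fold changes over the leave-one-out runs were 0.86 to 1.43 and 0.39 to 0.52. Upper-quartile scaling turned the sign of Il10rb (-0.000749) and Jak1 (-0.0204). Leaving out 1 library gave -0.0355 to 0.0589 for Jak1, with -0.00537 without control library 1, and -0.21 to 0.0329 for Irf1. Among 35 tested of 55 other pathway genes, 2 rose, or 0 to 2 with 1 library left out, and 0 fell, or 1 (Socs2) with upper-quartile scaling, without a filter on low counts, with the replicate block and at an adjusted p under 0.1. Of 45 target genes, 24 rose, or 7 to 25 with 1 library left out, 18 with limma voom, 30 without a filter on low counts and 32 with the replicate block. The gamma-interferon targets gave 7 of the 30 and 9 of the 32, against 1 of the 24. The count over all 45 target genes was 7 without control library 2 and 15 without control library 3. In both of these runs 0 gamma-interferon targets rose. Where fewer libraries were used, the loss of samples is part of the setting, and no other cause was tested.

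The labels do not say that libraries with the same number are paired. The correlations of their deviations from the group means, over abundant genes as a whole, were -0.02, 0.10 and 0.02. Between libraries of different numbers they were -0.09 to 0.05, so that number 2 had the highest value. The number was not taken as a pairing. A pairing in the interferon genes alone was not tested. With the replicate block the SE of Irf7 fell from 0.25 to 0.16. Those of Stat2, Irf9 and Irf1 also fell, while those of the remaining genes among the 9 rose. With the replicate block, 4 of the 9 genes and 32 of the 45 targets rose and 0 fell, Alb lost its call (adjusted p = 0.0583), 1 macrophage or dendritic cell marker was lower, and 552 genes in all were higher and 428 lower, against 537 and 474. Upper-quartile scaling gave 449 and 591, and leaving out control library 2 gave 229 and 233.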
